A study of Homo sapiens with 6 samples.

Results

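Expression of 10 ETS family transcription factor genes was followed by all of their probe sets on 6 expression arrays of MDA-MB-231 cells, an established human breast cancer line of the triple-negative, mesenchymal type. The members were ETV1, ETV4, ETV5, ETV6, ETV7, ELF3, EHF, ETS1, ETS2 and SPDEF. A probe set was a member where the platform annotation gives exactly one of these symbols and no other gene. This gave 43 of the 49293 probe sets that are not array controls, for 10 of 18132 genes. The set was put together because ETV7 and ELF3 were strongly higher with treatment, so the values of SAHA against DMSO that follow for the members are a description and carry no test.

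Both groups were this line, kept for 8 h with 5 µM SAHA (vorinostat), a broad inhibitor of histone deacetylases, or for 8 h with its solvent DMSO. Each group had 3 arrays of total RNA. The labels do not name separate cultures, so the spread behind each p-value is that of these arrays and may be technical. Every value is a log2 expression value of a single probe set. The number of arrays limits the precision, and a level of 1 probe set has no common scale with that of another.

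ETS factors share a DNA-binding fold, the ETS domain, which reads sites with the core GGAA. The PEA3 branch (ETV1, ETV4, ETV5) and the ETS branch (ETS1, ETS2) act downstream of receptor and RAS signalling through ERK signalling, and are known for their part in invasion. ELF3, EHF and SPDEF belong to epithelia and are usually found in luminal or secretory cells. ETV6 and ETV7 are repressors, of which ETV7 is known as an interferon-induced gene.

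Arrays of the same group correlated across probe sets at r = 0.997 to 0.998 and arrays of different groups at 0.968 to 0.970. The difference between the 3' and 5' control probe sets of ACTB, a sign of RNA integrity and amplification, was 0.73 to 1.05 log2 units in the DMSO and 0.54 to 0.66 in the SAHA arrays. That of GAPDH was 0.008 to 0.043 in DMSO and 0.045 to 0.085 in SAHA arrays. Both separated the groups, in opposite directions, and so move with every difference given here, and their part in it was not tested. In DMSO the line's mesenchymal markers were at a log2 value of 13.96 ± 0.01 for VIM, 12.61 ± 0.05 for AXL, 12.24 ± 0.09 for CD44, 9.66 ± 0.14 for ZEB1, 9.64 ± 0.16 for FN1 and 5.84 ± 0.22 for SPARC (SD, n = 3). With SAHA, CD44 (-0.57), ZEB1 (-0.45) and AXL (-0.38) were lower and FN1 (0.67) higher by limma over all genes, while VIM (0.07) and SPARC (0.05) did not pass. The luminal and epithelial markers ESR1 (5.98 ± 0.06), CDH1 (4.20 ± 0.15) and PGR (3.29 ± 0.11) showed overlapping groups. The other luminal markers, EPCAM (8.67 ± 0.07 in DMSO), ERBB2 (7.63 ± 0.15) and GATA3 (6.67 ± 0.08), were lower with SAHA. None of the 6 was higher. Of 5 measured leukocyte and endothelial markers, with DMSO means between 3.33 and 5.02, CD14 was higher (3.96 to 4.97) and CD3E lower (4.88 to 4.63).

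With SAHA, ETV7 in 2 of its 7 probe sets and ELF3 were far higher, ETV5 was moderately higher, and ETS1 and ETV4 were lower. ETS2 gave opposite signs in its probe sets. In every probe set of EHF and SPDEF the DMSO and SAHA arrays overlapped, and most probe sets of ETV1 and ETV6 differed by little. Of the 43 probe sets, 11 were higher and 6 lower past the threshold of an adjusted p under 0.05 in limma's test over all probe sets. Over all probe sets 46.4% passed, 22.2% higher and 24.1% lower. Since the members were chosen with this contrast known, nothing is read from their count. Without ETV7 and ELF3, 6 of the other 33 probe sets were higher and 6 lower. At 2-fold or more, 5 member probe sets were higher and 2 lower, against 4.96% and 4.14% of all probe sets. The median log2 fold change of the members was 0.02, and that of all probe sets was -0.02. The 3 SAHA values lay above the 3 DMSO values in 13 member probe sets and below them in 9, against 25.9% and 28.4% of all probe sets.

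**Figure D1:**
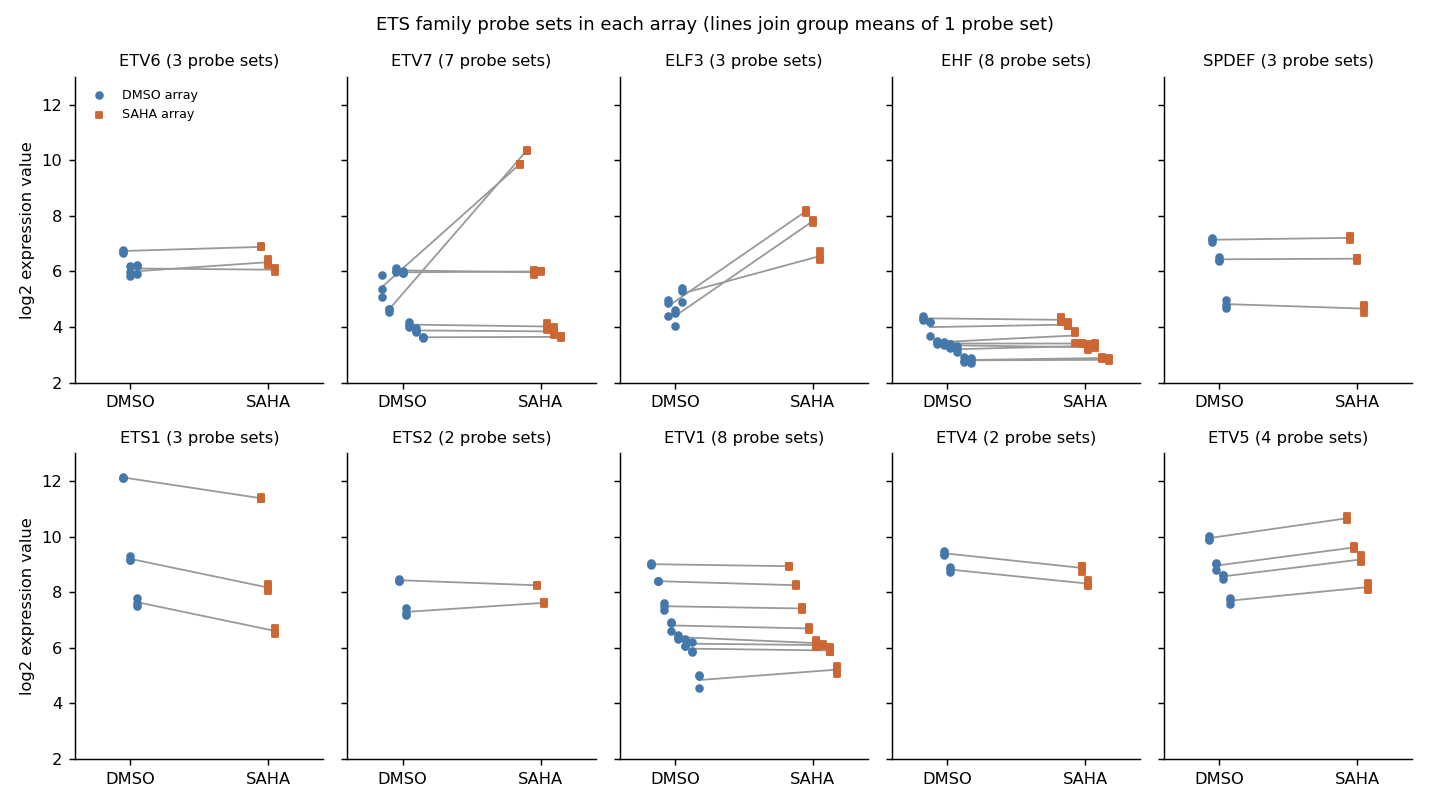
Log2 expression value (y axis) of each of the 43 probe sets in the 3 DMSO and 3 SAHA arrays, in a panel per gene, with points for arrays and lines joining the group means of a probe set. ETV7 has 2 steep lines among 7, ELF3 has 3 of 3, and the lines of EHF and SPDEF are flat.

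ETV7, also called TEL2, is a repressor of the ETV6 branch, and its probe sets fell into 2 kinds. In 11761671_a_at the DMSO arrays read 4.56, 4.67 and 4.64 and the SAHA arrays 10.36, 10.38 and 10.34. In 11762172_x_at the DMSO arrays read 5.86, 5.09 and 5.36 and the SAHA arrays 9.89, 9.88 and 9.83. In both probe sets the SAHA arrays lay close together, and no SAHA value came near a DMSO value. The DMSO arrays of 11762172_x_at were more spread (SD 0.39, against 0.03 in SAHA). These are log2 fold changes of 5.74 ± 0.06 and 4.43 ± 0.17 (limma's standard error, n = 3 per group), or 53.3-fold and 21.5-fold. Over the alternatives run, the first stayed between 5.70 and 5.92 and the second between 4.26 and 4.64.

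The other 5 ETV7 probe sets did not share this. Their log2 fold changes were -0.07 to 0.03, and in each of them the DMSO and SAHA arrays overlapped. Among these is 11724694_x_at, which read 6.03, 6.13 and 5.96 in DMSO and 5.87, 6.07 and 5.98 in SAHA arrays. It is the single ETV7 probe set whose design record in the platform annotation is a current RefSeq mRNA of the gene. The records behind both responding probe sets are not. The probe sequences and their places in the ETV7 transcripts were not used here. Whether the responding probe sets read ETV7 alone, and which transcript forms carry the difference, was thus not tested.

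ETV6, the close relative of ETV7 and a repressor needed in blood formation, differed little. Probe set 11743167_at read 5.97, 6.18 and 5.83 in DMSO and 6.34, 6.44 and 6.23 in SAHA arrays, a log2 fold change of 0.34 ± 0.10. Its groups did not overlap, and it was past the threshold. That call was lost without DMSO array 1 (0.33) or 3 (0.26) and without SAHA array 1 (0.34) or 2 (0.29). The other probe sets gave 0.15 ± 0.06 and -0.04 ± 0.10. The largest ETV6 difference was thus far below both large ETV7 differences.

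ELF3, an epithelial ETS activator that also answers to inflammatory signals, was higher in all 3 probe sets. In 11717594_s_at the DMSO arrays read 4.96, 4.39 and 4.88 and the SAHA arrays 8.21, 8.18 and 8.11, a log2 fold change of 3.43 ± 0.14 or 10.7-fold. In 11717595_s_at they read 5.29, 4.91 and 5.40 against 6.43, 6.73 and 6.50, a log2 fold change of 1.35 ± 0.14 or 2.55-fold. The groups stood apart in both, and DMSO array 2 was the lowest of its group in both. The third probe set, 11751914_s_at, is no separate reading. It lay 0.356 below 11717594_s_at on every array, within 1e-05 log2 units, and its log2 fold change is again 3.43. With this pair counted once, 10 of 42 member probe sets were higher. All ELF3 probe sets end in _s_at, a suffix for probes that match several similar transcripts.

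EHF, a close relative of ELF3 and likewise an epithelial factor, was measured by 8 probe sets, all between 2.70 and 4.38 on every array. Its log2 fold changes ran from -0.07 to 0.24, the groups overlapped in each probe set, and none passed the threshold. The largest was that of 11764166_s_at, at 3.40, 3.46 and 3.49 in DMSO and 3.78, 3.43 and 3.87 in SAHA arrays. Without SAHA array 2, the lowest of its group, it was at 0.38 and past the threshold, as it was centred on ribosomal protein genes (0.32) or poly-A spike-ins (0.43). SPDEF, a factor of luminal and secretory cells, gave 0.07 ± 0.07, 0.02 ± 0.07 and -0.16 ± 0.10 in its 3 probe sets. Its groups overlapped in all of them.

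RefSeq (GRCh38.p14) start-site windows were at hand for 6 of the 10 members, and ETV4, ETV5, ETV7 and ETS1 had none. The 250 bases before the start are shown for ELF3 and EHF, as close relatives of which ELF3 was higher and EHF was not. ELF3 lies at chr1:202010337-202010586 and the first EHF window at chr11:34624007-34624256, both on the plus strand. Capitals mark GGAA, the ETS core, on either strand (TTCC on the minus strand), and TATAAA.
ELF3: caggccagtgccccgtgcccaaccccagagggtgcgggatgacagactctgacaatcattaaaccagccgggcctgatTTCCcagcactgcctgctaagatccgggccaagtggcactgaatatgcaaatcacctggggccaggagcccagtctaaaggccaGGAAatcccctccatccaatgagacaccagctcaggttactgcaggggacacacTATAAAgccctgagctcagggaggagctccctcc
EHF: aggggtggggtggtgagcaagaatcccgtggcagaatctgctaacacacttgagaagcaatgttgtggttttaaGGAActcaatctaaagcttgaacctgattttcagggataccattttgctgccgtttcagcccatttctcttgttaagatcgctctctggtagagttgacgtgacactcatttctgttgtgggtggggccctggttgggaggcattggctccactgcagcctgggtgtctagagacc

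The ELF3 window held 2 GGAA matches, which begin 172 and 88 bases before the start, and a TATAAA that begins 34 bases before it. The EHF window held 1 GGAA match, 176 bases before the start. Both had 4 CpG dinucleotides, where the median of all 35116 windows is 11. GGAA was found in 92.7% of all windows on either strand and TATAAA in 10.7%. The longer ETS forms CCGGAA (14.5% of all windows) and CCGGAAGT (3.42%), both of which contain GGAA, were in neither window. A second EHF window, not shown, held 0 GGAA matches and 2 CpG dinucleotides. Of the other members, ETV1 had CCGGAA in 3 of its 6 windows, while those of ETV6, ETS2 and SPDEF held none. A pair of these ETV1 windows overlap and hold the same site. The ETV6 window was the richest in CpG among the members, with 32. These letters describe the windows and do not show binding.

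ETS1, the founding member of the family and an activator of protease genes in invasive cells, was lower in all 3 probe sets. Probe set 11722300_a_at read 12.16, 12.12 and 12.12 in DMSO and 11.43, 11.35 and 11.38 in SAHA arrays, a log2 fold change of -0.75 ± 0.06 or 0.595 of the DMSO level. Probe set 11752387_a_at read 9.29, 9.17 and 9.16 against 8.04, 8.28 and 8.18, or -1.04 ± 0.08. Probe set 11722301_a_at read 7.52, 7.81 and 7.60 against 6.72, 6.59 and 6.52, or -1.04 ± 0.09. Every SAHA array lay below every DMSO array in each of them. The differences kept their sign in all alternatives run, between -1.10 and -0.57.

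ETS2, its close relative, did not follow ETS1, and its probe sets had opposite signs. Probe set 11742752_a_at read 8.42, 8.49 and 8.39 in DMSO and 8.24, 8.26 and 8.26 in SAHA arrays, a log2 fold change of -0.18 ± 0.06. Probe set 11758370_s_at read 7.25, 7.45 and 7.18 against 7.64, 7.56 and 7.66, or 0.33 ± 0.08. The groups stood apart in both, in opposite directions, so ETS2 has no single direction here. The lower value lost its call in 9 of 13 alternatives, among them each setting that leaves out an array except DMSO array 3 (-0.15 to -0.19). After centring on poly-A spike-ins it was level, at -0.00085.

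The PEA3 branch split. ETV5, which ERK signalling raises in many cells, was higher in all 4 probe sets, by 0.49 to 0.71. Its probe set 11720353_s_at read 9.94, 10.04 and 9.88 in DMSO and 10.76, 10.64 and 10.60 in SAHA arrays, or 0.71 ± 0.07 (1.64-fold). ETV4, which is regulated much alike in other cells, was lower in both of its probe sets. In 11719434_a_at it read 9.35, 9.48 and 9.39 against 8.96, 8.94 and 8.74, or -0.53 ± 0.08. In 11747996_a_at it read 8.82, 8.72 and 8.91 against 8.45, 8.26 and 8.22, or -0.51 ± 0.08. The groups did not overlap in any probe set of ETV4 or ETV5, and neither gene lost a call or changed sign in an alternative.

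ETV1, the third PEA3 factor, passed the threshold in none of its 8 probe sets, with log2 fold changes from -0.22 to 0.38. In 7 of the 8 the value was below 0, and in 3 of these the SAHA arrays lay below the DMSO arrays. Probe set 11733180_a_at, for example, read 8.40, 8.40 and 8.41 in DMSO and 8.23, 8.25 and 8.28 in SAHA arrays, or -0.15 ± 0.06. Probe set 11733181_at went the other way, at 4.54, 4.97 and 5.01 against 5.34, 5.06 and 5.25, or 0.38 ± 0.13. It passed the threshold without DMSO array 2 (0.44) or 3 (0.46), without SAHA array 2 (0.45), and in 4 other settings. The other changes were that 3 probe sets passed as lower in some setting: 11733180_a_at (-0.15) and 11747748_a_at (-0.22) with a mean log2 value of at least 5, the latter also after further quantile normalization (-0.26), and 11748965_x_at without DMSO array 3 (-0.21).

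**Figure D2:**
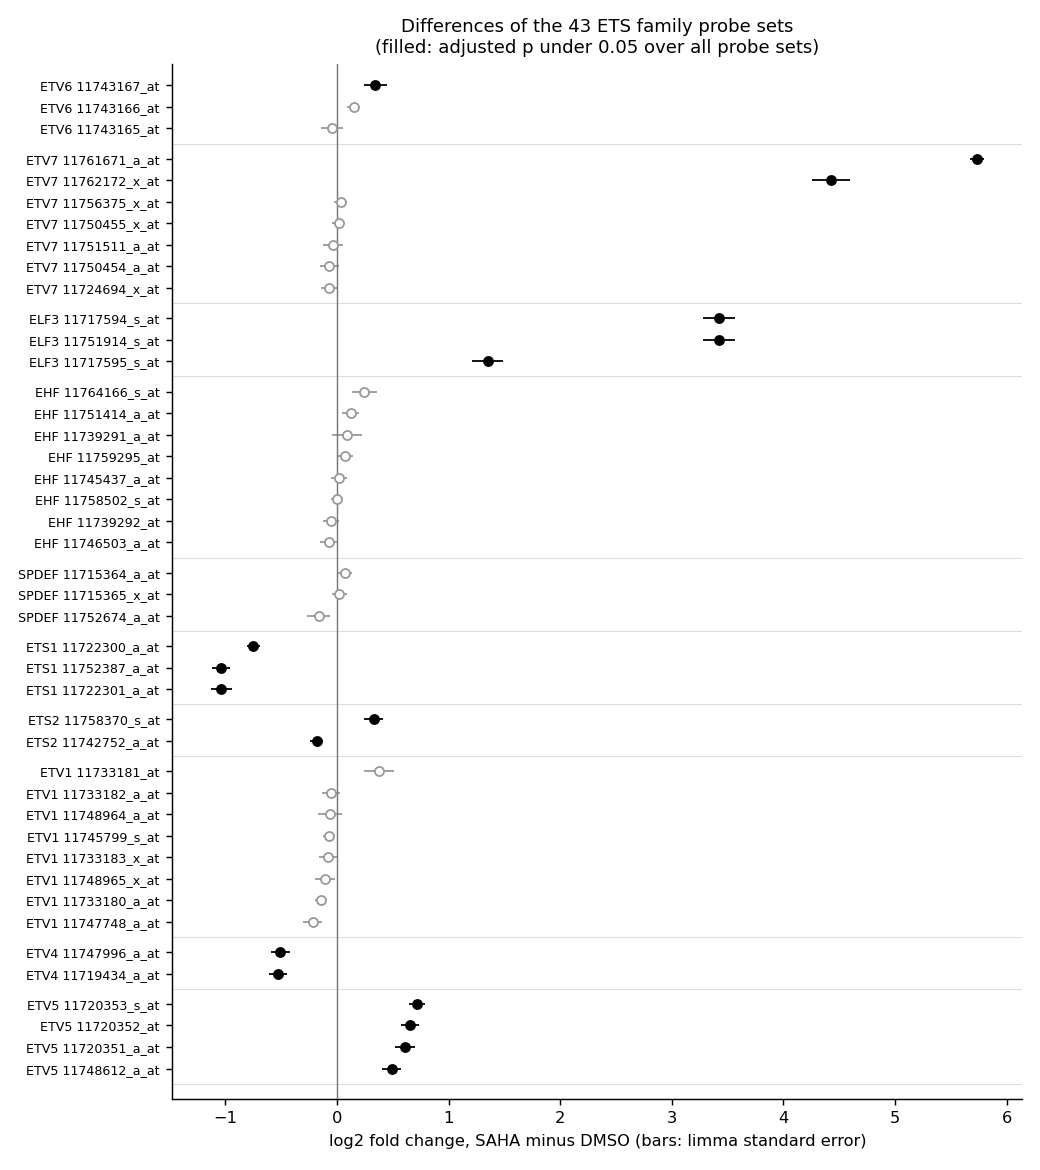
Log2 fold change of SAHA over DMSO (x axis) with limma's standard error for each of the 43 probe sets, grouped by gene on the y axis, filled where the adjusted p over all probe sets was under 0.05. Both ETV7 probe sets at 4.43 and 5.74 stand far from the other 5 near 0, and ETV4 and ETV5 lie on opposite sides of 0.

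The other 18 human ETS genes were no part of the set, and each was tested. They are what is left of the family once a set with strong risers is taken out. That set was chosen with this contrast known, so their counts by direction are a description. Here and below a gene is represented by its brightest probe set, and adjusted p-values are limma's over 18132 genes. Of the 18, 9 fell and 1 rose, where 48.3% of all genes passed, 23.8% falling and 24.6% rising. Their median log2 fold change was -0.14, against -0.01 for all genes. The direction of these counts held under each scaling, with 8 falls and 1 rise after centring on ribosomal protein genes and 7 and 2 on poly-A spike-ins. The last of these shifts the median of all genes by 0.18, and then 6023 of all genes were higher and 2412 lower, against 4457 and 4307.

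ELF4, a factor of the ELF branch known from lymphocytes and innate immunity, fell most. It read 8.74, 8.86 and 8.80 in DMSO and 6.93, 6.84 and 6.98 in SAHA arrays, a log2 fold change of -1.88 ± 0.06 (adjusted p = 4.1e-07) or 0.271 of the DMSO level. ELK3, a ternary complex factor that works with SRF, read 11.50, 11.40 and 11.39 against 10.00, 9.93 and 10.08, or -1.43 ± 0.06 (adjusted p = 1.3e-06). In both genes the groups stood far apart, and a second ELK3 probe set gave -1.54 ± 0.07. The direction of both held in all alternatives run.

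The related ELK4 fell by 1.03 ± 0.07 in its brightest probe set. Its other 3 probe sets gave -0.64, -0.06 and -0.27, of which the second did not pass over probe sets (adjusted p = 0.59). ELK1, the best known ternary complex factor, was the single riser, at 8.98, 9.02 and 9.02 in DMSO and 9.36, 9.35 and 9.27 in SAHA arrays (0.32 ± 0.05, adjusted p = 0.00146). A second ELK1 probe set gave 0.28 ± 0.07 and the dimmest -0.03 ± 0.07. The ternary complex factors thus moved both ways.

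ELF2 fell by 0.89 ± 0.07, ELF1 by 0.62 ± 0.06 and GABPA, which drives housekeeping and mitochondrial genes, by 0.75 ± 0.11. All 6 probe sets of ELF2, all 3 of ELF1 and both of GABPA were lower past the threshold over probe sets. ERF, a repressor that ERK phosphorylation expels from the nucleus, fell by 0.76 ± 0.06. ETV2, an endothelial factor, fell by 0.40 ± 0.08, a call lost after centring on poly-A spike-ins (-0.22). FLI1, of blood and endothelium, fell by 0.24 ± 0.07 (adjusted p = 0.0237). Its call was lost without DMSO array 2 (-0.18), SAHA array 2 (-0.21) or SAHA array 3 (-0.25), and after centring on either scale (-0.16 and -0.06). It was also lost with the replicate number as a block, with trend and robust moderation, and with its probe sets averaged (-0.12). The other 3 FLI1 probe sets, at -0.18, -0.02 and -0.05, did not pass.

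The remaining 8 did not pass. They were the blood cell factors SPI1 (-0.02 ± 0.09), SPIB (-0.03 ± 0.07) and SPIC (-0.02 ± 0.15), the epithelial ELF5 (0.10 ± 0.08), and ERG (0.13 ± 0.12), ETV3 (0.00 ± 0.06), ETV3L (0.02 ± 0.09) and FEV (0.00 ± 0.14). Without DMSO array 2 (0.28) or centred on poly-A spike-ins (0.32) ERG passed as higher. Of its 12 probe sets, 1 dim one was past the threshold, at -0.28 ± 0.09.

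**Figure D3:**
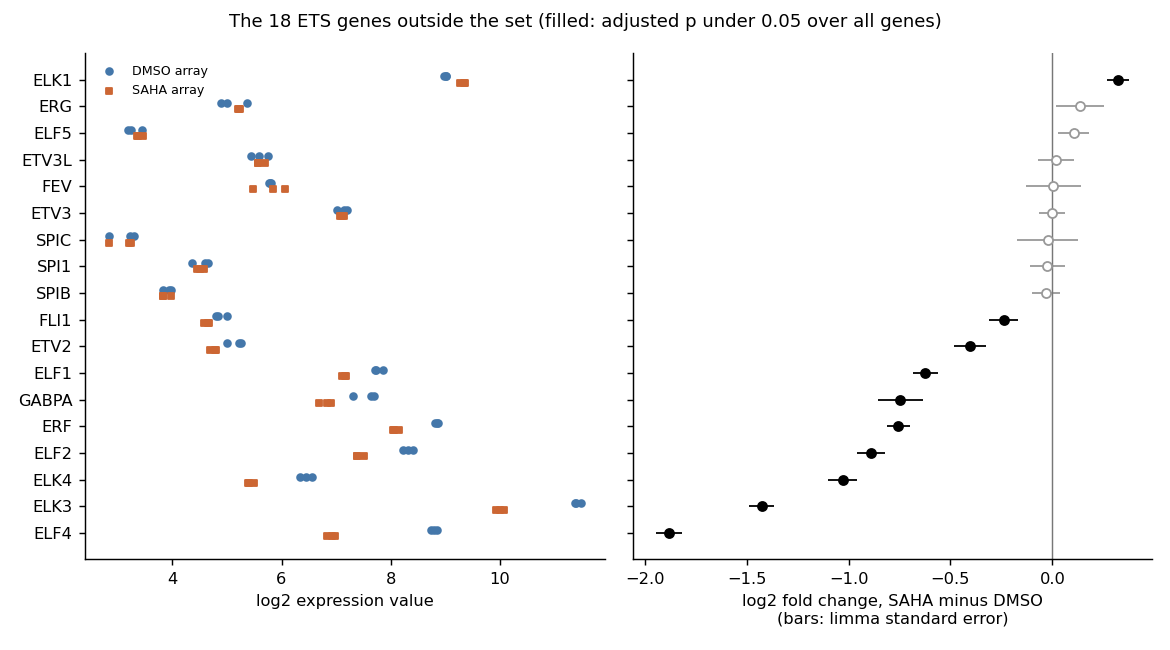
The 18 ETS genes outside the set, on the left as log2 expression value in each DMSO and SAHA array, on the right as log2 fold change with limma's standard error, filled where the adjusted p over all genes was under 0.05. ELF4 lies lowest at -1.88 and ELK1 is the single filled point above 0, at 0.32.

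Partners and regulators of ETS factors went both ways. Of 12 measured genes, 6 fell and 2 rose (66.7% called, against 48.3% of all genes), with a median of -0.12. Centred on poly-A spike-ins 4 were lower and 3 higher, and without DMSO array 1, DMSO array 3 or SAHA array 3, 4 were lower. CREBBP, a histone acetyltransferase and ETS coactivator, fell by 1.14 ± 0.09 (adjusted p = 2.28e-05), and DAXX, a corepressor that binds ETS1, by 0.90 ± 0.06. COP1, the ubiquitin ligase that marks ETV1, ETV4 and ETV5 for degradation, read 9.46, 9.47 and 9.45 in DMSO and 8.88, 8.76 and 8.60 in SAHA arrays, or -0.71 ± 0.08. ATXN1 rose by 0.99 ± 0.17 and ATXN1L by 0.24 ± 0.08, both partners of the repressor CIC, which silences the PEA3 genes. CIC itself was at 0.13 ± 0.06 (adjusted p = 0.111). The call of ATXN1L was lost without DMSO array 2 (0.24) or 3 (0.20) and without SAHA array 1 (0.18) or 3 (0.26).

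Genes that ERK signalling commonly raises went both ways, as ETV4 and ETV5 did. Of 16 measured, 9 fell and 5 rose, with a median of -0.38. Called were 87.5%, where 48.3% of all genes passed, in a list written with earlier results of these data known. CCND1, the G1 cyclin, fell by 2.19 ± 0.06, with the AP-1 subunit FOSL1 at -1.76 ± 0.06 and PHLDA1 at -1.56 ± 0.05 (adjusted p = 2.64e-07, 4.96e-07 and 4.12e-07). PHLDA1 was at -0.07 ± 0.06 in a dimmer probe set. The ERK phosphatase DUSP5 read 10.79, 10.91 and 10.73 in DMSO and 12.50, 12.38 and 12.44 in SAHA arrays, or 1.63 ± 0.07 (adjusted p = 9.59e-07). EGR1, an immediate early gene, rose by 1.19 ± 0.06, and 1 of its 6 probe sets did not pass (0.28 ± 0.12).

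Genes known as targets of ETS1 or the PEA3 factors were likewise split. Of 16 measured, 6 fell and 5 rose (68.8% called, against 48.3% of all genes), with a median of -0.06. Centred on poly-A spike-ins the balance turned, to 4 lower and 7 higher. The urokinase PLAU read 10.52, 10.54 and 10.51 in DMSO and 7.95, 7.76 and 7.91 in SAHA arrays, or -2.65 ± 0.07 (adjusted p = 1.97e-07). Its receptor PLAUR was at -2.47 ± 0.07, and the membrane protease MMP14 at -1.78 ± 0.06. Every probe set of these 3 genes was lower past the threshold. In contrast the gelatinase MMP9 rose by 1.10 ± 0.07 and PTGS2, which makes prostaglandins, by 1.36 ± 0.15.

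Of 4 genes described as repressed by ETV6 or ETV7 in other work, 2 fell, 1 rose and 1 did not pass. Over all genes 48.3% passed. BCL2L1, which encodes BCL-XL, fell by 1.46 ± 0.07 in its brightest probe set and did not pass in its dimmest (-0.18 ± 0.07). The TNF receptor TNFRSF1A fell by 0.51 ± 0.06 (adjusted p = 0.000231). In the single TNFRSF1A probe set that does not end in _s_at, the value was -0.06 ± 0.07. MMP3, a matrix protease, rose by 0.84 ± 0.13. DNAJC15, a mitochondrial cochaperone, read 10.71, 10.61 and 10.62 in DMSO and 10.69, 10.55 and 10.64 in SAHA arrays (-0.02 ± 0.06, adjusted p = 0.799).

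Epithelial genes tied to ELF3, EHF or SPDEF showed no common direction beside ELF3. Of 21 measured, 4 rose, 5 fell and 12 did not pass, with a median of 0.07. Called were 42.9%, where 48.3% of all genes passed. Most genes that did not pass were dim: with a mean log2 value of at least 5, 12 genes remained, of which 4 rose and 5 fell. Centred on poly-A spike-ins, 9 were higher and 5 lower. KRT19, a simple epithelial keratin, read 7.48, 7.35 and 7.25 in DMSO and 10.18, 10.10 and 10.02 in SAHA arrays, or 2.74 ± 0.08 (adjusted p = 2.51e-07). AGR2, a disulphide isomerase of secretory cells, rose by 1.46 ± 0.09 and CLDN7, a tight junction protein, by 0.85 ± 0.06. Of 4 AGR2 probe sets the dimmer pair did not pass (0.15 and 0.04). The adhesion molecule EPCAM fell by 0.93 ± 0.06. CDH1, the epithelial cadherin, was dim (4.20 in DMSO) and did not pass, at -0.03 ± 0.08 (adjusted p = 0.773).

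Interferon-stimulated genes, the class that ETV7 is known to join, were also mixed. Of 20 measured, 9 rose, 3 fell and 8 did not pass (60% called, against 48.3% of all genes), with a median of 0.04. IFIT1 read 6.60, 6.56 and 6.62 in DMSO and 9.57, 9.57 and 9.51 in SAHA arrays, or 2.96 ± 0.05 (adjusted p = 8.52e-08). ISG15 rose by 2.09 ± 0.05 and IFI6 by 1.72 ± 0.06. IFIT2 (-2.01 ± 0.11) and IFIT3 (-1.99 ± 0.13), relatives of IFIT1 that are usually induced with it, fell.

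**Figure D4:**
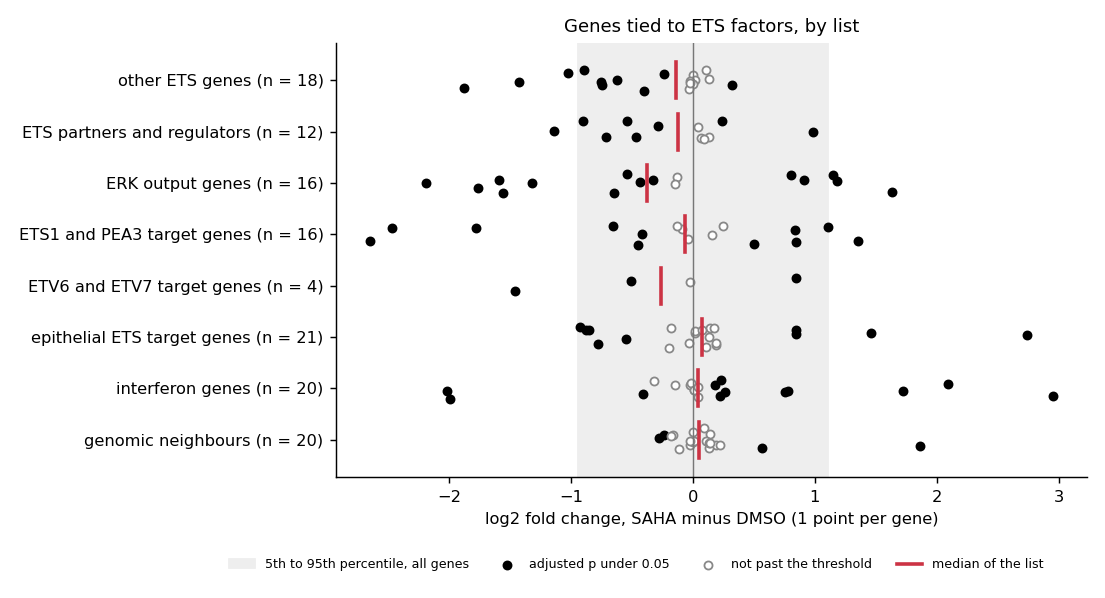
Log2 fold change of SAHA over DMSO (x axis) of each measured gene in 8 lists (y axis), filled where the adjusted p over all genes was under 0.05, with the median of each list as a red bar and the 5th to 95th percentile of all genes in grey. Every list plotted holds at least 1 gene beyond the grey band, such as BCL2L1 at -1.46 and SCIN at 1.86, and no median lies outside it.

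Most chromosomal neighbours of the members did not pass the threshold. ETV1, ETV6, EHF and SPDEF did not pass in their own brightest probe sets, so their neighbours had no called direction to share. The nearest measured protein-coding gene on each side of each member, by order in RefSeq, gave 20 genes. Of these 2 rose, 2 fell and 16 did not pass, with a median of 0.05. That is 20% called, where 48.3% of all genes passed. The brightest probe set had a mean log2 value of at least 5 in 15 of the 20, and the others were dimmer. Beside ETV7 on chromosome 6, BNIP5 was at 0.13 ± 0.07 and PXT1 at -0.00 ± 0.08. Beside ELF3 on chromosome 1, RNPEP was at 0.01 ± 0.05 and GPR37L1 at -0.18 ± 0.09. Neither pair passed (adjusted p = 0.178, 0.983, 0.882 and 0.152). Mean log2 values over the 6 arrays were low for BNIP5 (4.82), PXT1 (5.09) and GPR37L1 (5.15). BNIP5 passed as higher after centring on ribosomal protein genes (0.20) or poly-A spike-ins (0.31), and GPR37L1 as lower with its probe sets averaged (-0.21) and without DMSO array 2 (-0.27).

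The risers were SCIN, an actin-severing protein encoded near ETV1, at 1.86 ± 0.11 (adjusted p = 4.72e-06) and ILRUN beside SPDEF at 0.56 ± 0.07. The fallers were APIP beside EHF, at -0.27 ± 0.06, and the ETS gene FLI1 beside ETS1. The FLI1 call held in 1 of 4 probe sets and was lost in the alternatives given above. EHF and its ETS neighbour ELF5, and ETS2 and its ETS neighbour ERG, shared no called direction. The other neighbours were DGKB beside ETV1, DHX8 and MEOX1 beside ETV4, TRA2B and DGKG beside ETV5, PRB2 and BCL2L14 beside ETV6, KIRREL3 beside ETS1, PSMG1 beside ETS2 and PACSIN1 beside SPDEF. Their log2 fold changes ran from -0.17 to 0.22 in the brightest probe sets. Dimmer probe sets were lower past the threshold over probe sets for TRA2B (down to -0.42) and for GPR37L1 (-0.24). They were higher for DGKG (0.26), KIRREL3 (0.28) and MEOX1 (1.53). In some alternatives TRA2B passed as lower, and DGKG, MEOX1, PRB2 and PACSIN1 as higher. Counts here depended on scaling and on single arrays: without DMSO array 1 or 2, 4 rose, and without SAHA array 2 or 3, 1 fell.

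The genes whose profile over the 6 arrays lay nearest to that of ETV7 (Euclidean distance of log2 values from the DMSO mean, brightest probe sets) were TPPP at 0.68, ID2 at 0.72 and FAM117A at 0.95. TPPP, which promotes tubulin polymerization, read 5.11, 4.78 and 4.64 in DMSO and 9.19, 8.90 and 8.80 in SAHA arrays. Nearest to ELF3 were STC1 at 0.41, ELOVL3 at 0.42 and SH3PXD2B at 0.46. STC1, a secreted glycoprotein hormone, read 9.09, 8.96 and 9.18 against 12.36, 12.37 and 12.32. With 2 conditions, such likeness reflects mainly a difference of similar size between the groups.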

How the data were processed

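Total RNA was amplified by a 3' in vitro transcription kit, biotin-labelled and hybridized to 1-colour Affymetrix arrays, per the labels' protocols. The authors deposited 1 log2 value for each probe set and array, made by RMA (background correction, quantile normalization, median polish) per the submitters' processing notes. No version is named there. Quantile normalization hides a shift common to most transcripts, and fold changes near the floor of the scale are understated.

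Of 49395 probe sets, 102 were array controls. Of the rest 44988 named 1 gene, 1832 several and 2473 none, by the platform's annotation. Groups and replicate numbers came from the labels. SAHA minus DMSO was fitted over all 6 arrays with limma 3.58.1 (lmFit, eBayes) in R 4.3.3, without covariates or a filter, two-sided, with Benjamini-Hochberg adjustment at 0.05. It was run over all 49293 probe sets for the members, and for other genes over 18132 genes, each by its brightest probe set that names it alone (11734 genes have several). The fit was checked on simulated arrays. Errors beside group means are SDs, and those beside log2 fold changes are limma's standard errors.

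The members and the gene lists, written from textbook knowledge, were chosen with earlier results of these data known. Text names every measured ETS gene, ETV6 or ETV7 target and neighbour. In each other list it names the 4 genes with the smallest p and up to 2 called against the list's main direction, and CIC and CDH1 were added after their values were seen. Alternatives were the replicate block, further quantile normalization, centring on ribosomal protein genes or poly-A spike-ins, trend and robust moderation, a mean log2 value of at least 5, no _x_at or _s_at probe sets, averaging a gene over its probe sets, and leaving out each array. Start-site windows came from RefSeq, GRCh38.p14. Figures were drawn with matplotlib 3.10.9.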

Additional observations from a re-analysis of the deposited data

How the results depend on the processing

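No call of a member probe set or named gene changed sign under the alternatives run. Over 532 combinations of member probe set and alternative, 13 lost a call and 17 gained one. Over 952 of named gene and alternative, 15 lost and 20 gained one. Without _x_at and _s_at probe sets 28 member probe sets remained, of which 5 were higher, against 11 of 43, and all ELF3 probe sets were among those left out. The same setting left 3 falls among 17 epithelial genes, and 0 rises and 1 fall among 3 ETV6 and ETV7 targets.

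Centred on poly-A spike-ins, 9 epithelial genes, 8 neighbours and 2 of the other ETS genes were higher and 0 neighbours lower. Centred on ribosomal protein genes, 5 neighbours were higher and 1 lower. With probe sets of a gene averaged, 4 neighbours were higher, and with a mean log2 value of at least 5, 2 of 13 other ETS genes were. With the replicate number as a block, 1 neighbour was lower. Same-numbered arrays did not deviate together (correlations of -0.13, -0.07 and -0.04), so no effect of pairing was visible. With so few arrays per group, these correlations cannot exclude a culture or batch shared by same-numbered arrays. The block lowered the calls over all genes to 4214 higher and 4077 lower.

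Leaving out each array in turn gave 10 to 12 member probe sets higher and 5 to 7 lower, 1 to 2 other ETS genes higher, 1 to 2 partners higher and 4 to 6 lower, and 2 to 4 neighbours higher and 1 to 2 lower. With 3 arrays per group and no detection calls, small differences of dim probe sets such as those of EHF are not resolved.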

Other observations

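A constant offset between 2 probe sets of a gene, as in ELF3, is rare in the deposited table. Of 59355 pairs of probe sets that name the same single gene, 55 (0.0927%) differed by a constant on all 6 arrays within 0.001 log2 units. In 53 of these the offset was 0. SPRY1, on the list of ERK output genes, was another gene with such a pair.

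MEOX1, beside ETV4, did not pass in its brightest probe set (0.19 ± 0.09), while its dimmest, 11721623_a_at, gave 1.53 ± 0.14 (adjusted p = 5.35e-05, limma over all probe sets).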
